A study of Mus musculus with 25 samples.

Results

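Inmt, the major urinary protein genes Mup3 and Mup5, Gpx3, Ccl8, Usp18, Mb and 12 other genes gave higher mean signals in the back skin of adult mice than on any of the first days after birth that were sampled. They were chosen from the measured values themselves. A probe set entered when its mean intensity at 9 weeks, at 5 months and at 1 year was at least 150 units each time and at least 1.5 times the largest mean of postnatal days 1, 6, 14, 17 and 23. Of 12422 probe sets other than control probes, 30 (0.242%) met these level and ratio conditions. Among these, 6 had no gene symbol, 1 carried several symbols, and 2 had symbols beginning with Ifi, a prefix left out by the choice. The remaining 21 probe sets of 19 genes are described here, out of 12488 probe sets and 8251 named genes on the array. Because adult and young means chose the genes, the difference between them is given as a description, without a test.

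The study measured whole RNA from mouse back skin across the hair growth cycle on 25 arrays, labelled as 1 mouse per array. There were 3 mice at each of days 1, 6, 14, 17 and 23, at 9 weeks and at 5 months, and 4 mice at 1 year. The labels give age and mouse number. Neither strain nor sex nor any treatment is named. The 15 arrays up to day 23 are called young and the 10 later ones adult. In the first weeks after birth the follicles of a mouse pass together through growth, regression and rest, whereas those of adult skin cycle less in step. Whole skin also holds dermis, fat, blood vessels, immune cells and a thin sheet of skeletal muscle. A change in the number of cells of a type and a change in RNA per cell cannot be told apart in such samples.

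Array medians lay between 180.05 and 252 units. The ratio of 3′ to 5′ Gapdh control probes was 0.76 to 1.16 in young and 0.86 to 1.23 in adult arrays. Although the labels give 1 mouse per array, 8 young arrays had signal above the floor for both Xist, made in females, and Eif2s3y, a gene of the Y chromosome. They were 2 of the 3 arrays of day 1 and all arrays of days 6 and 17. Whether such RNA came from more than 1 mouse was not tested, so the SD on those days is not known to be a spread between single mice. The same limit holds for the standard errors and adjusted p of every comparison of young days, since each includes such a day. No adult array showed both. Eif2s3y alone, the male marker, was seen in 6 adult arrays, namely all 4 at 1 year, mouse 3 at 9 weeks and mouse 2 at 5 months, and Xist alone, the female marker, in the other 4.

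Some of the 19 genes have well-known roles, and no gene list used here held more than 2 of them. The choice itself placed these genes among the list genes with all adult means above the young means, so such counts are partly fixed by it. Methyl transfer, glutathione peroxidation and glutathione conjugation, done by the products of Inmt, Gpx3 and Gstt1, are part of the handling of small amines, peroxides and foreign compounds. Major urinary proteins are lipocalins that bind small hydrophobic molecules and are best known as liver products excreted in urine. Interferons induce genes such as Usp18, an ISG15 protease that limits interferon signalling, and Ly6e, a membrane-anchored protein of the Ly6 family. Chemokines such as the product of Ccl8 and chemoattractants such as chemerin, the product of Rarres2, draw immune cells into tissue.

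**Figure D1:**
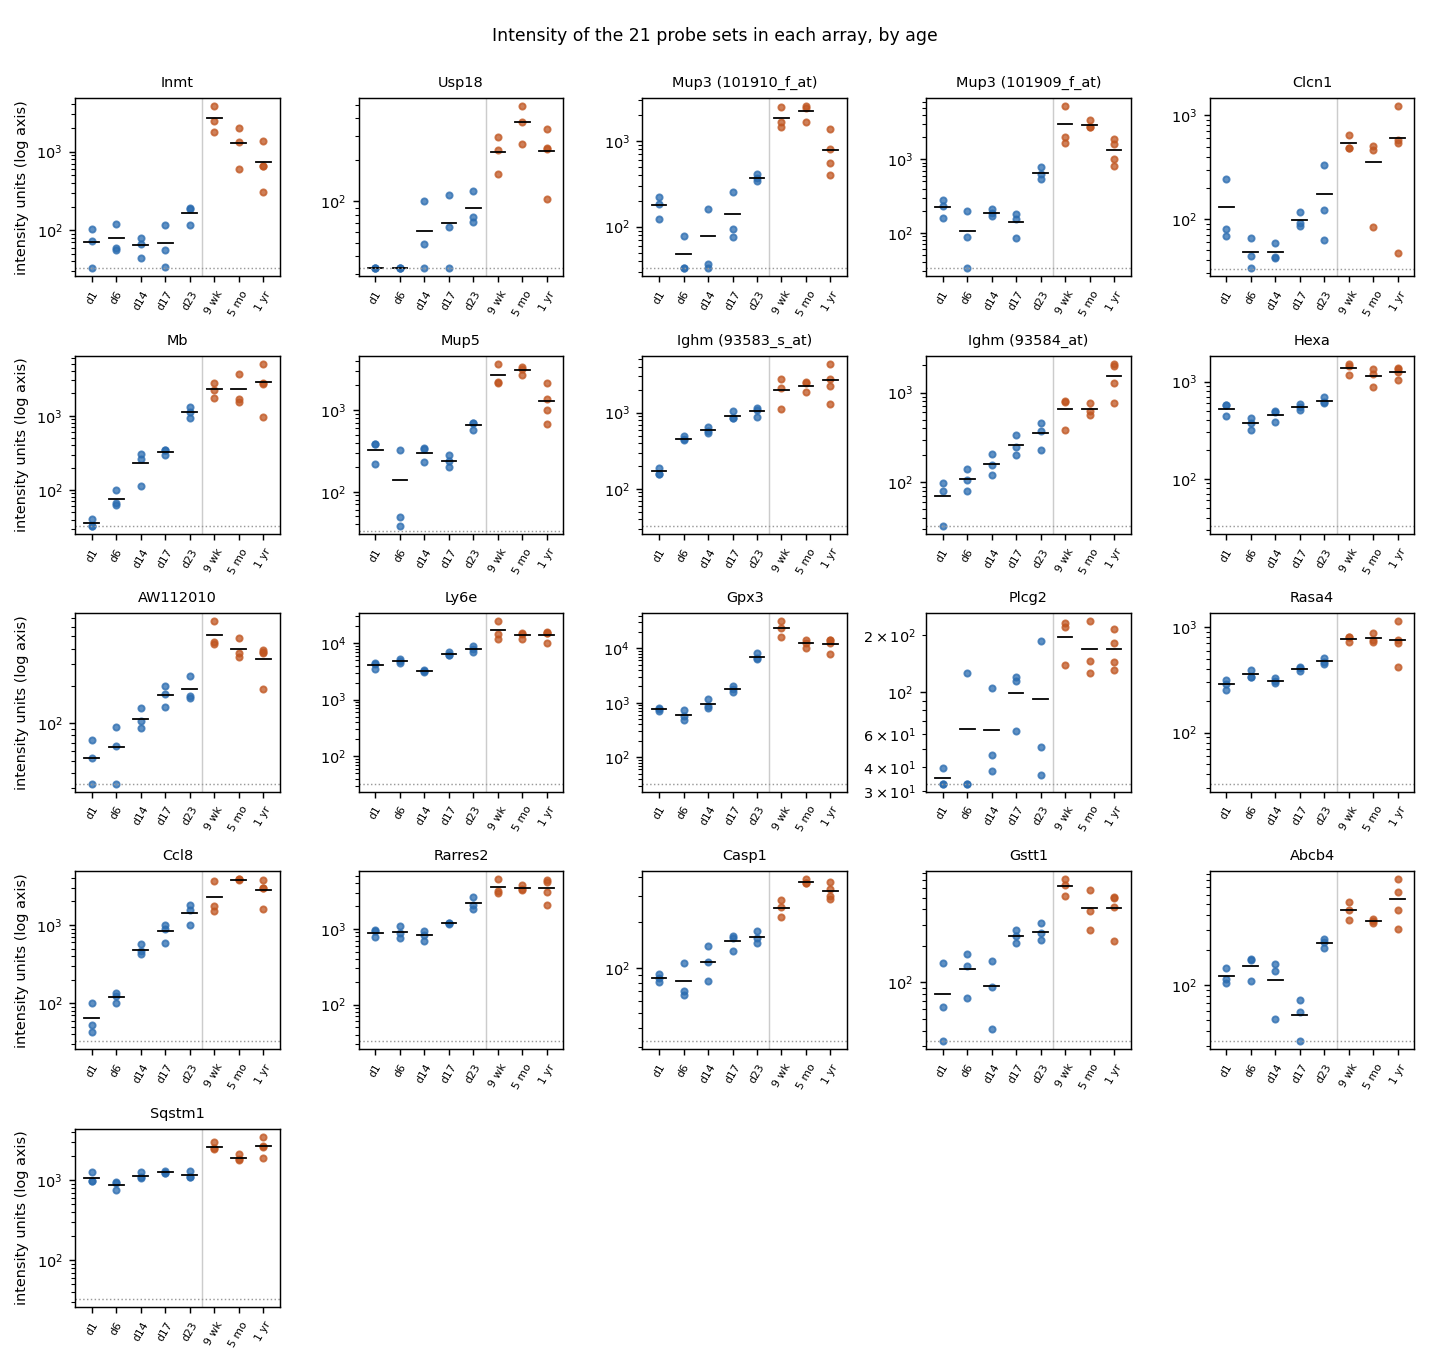
Intensity in linear units on a log axis for each of the 21 probe sets, by age; every dot is 1 array (blue young, orange adult), black bars are age means and the dotted line is the floor of 32.7 units. Inmt lies at 191.4 units or less in the young arrays and at 307.8 or more in the adult ones, whereas Clcn1 has adult arrays at 84.2 and 46.8 units, inside the young range.

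Inmt, indolethylamine N-methyltransferase, had the largest ratio of the lowest adult to the highest young mean, 4.52. Its promoter is shown because of a repeated TATAAA. RefSeq places the 250 bases before the start of Inmt at chr6:55174991-55175240 of GRCm38.p6, minus strand, and capitals mark the letters TATAAA, which begin 80 and 69 bases before the start.
Inmt: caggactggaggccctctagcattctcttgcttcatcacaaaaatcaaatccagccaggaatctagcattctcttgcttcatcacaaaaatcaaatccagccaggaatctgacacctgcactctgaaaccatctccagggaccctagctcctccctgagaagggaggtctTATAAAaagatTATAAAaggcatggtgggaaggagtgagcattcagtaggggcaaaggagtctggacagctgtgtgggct
At days 1, 6, 14 and 17 Inmt read between the floor of 32.7 and 120.7 units in every array. The 3 arrays of day 23 read 187.3, 115.6 and 191.4 units. At 9 weeks the signal was 3794.6, 1789.0 and 2467.0 units, with a mean of 2683.5 ± 1020.2 (SD, n = 3). All adult arrays lay above all young ones. The 5-month mice read 1979.2, 600.2 and 1324.3 units, and those of 1 year 1354.8, 655.7, 307.8 and 660.9 units. Every 9-week array was thus above every 1-year array, while 5-month mice overlapped with both.

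Gpx3 encodes the secreted glutathione peroxidase. Its mean was 762.6 ± 43.3 units on day 1, 1824.4 ± 213.5 on day 17 and 7075.7 ± 946.7 on day 23 (SD, n = 3 each). The 9-week arrays read 31345.5, 24140.7 and 16193.1 units. Those of 5 months read 14534.1, 10292.6 and 12315.3 units, and those of 1 year 14230.8, 14048.2, 7852.1 and 12569.8 units. All 9-week mice were above all older mice, and the third 1-year mouse lay just below the highest day 23 array, at 8168.7 units. Gstt1, a theta-class glutathione transferase, had means of 80.2 to 262.6 units on the young days and 623.0 ± 97.8, 412.5 ± 158.1 and 411.5 ± 133.3 units at 9 weeks, 5 months and 1 year. Mouse 2 of 5 months (269.5 units) and mouse 3 of 1 year (221.1 units) were inside the young range, which reached 308.1. From the list of genes for glutathione and foreign-compound metabolism, 37 passed the filter on low signal, and 9 of them had all 3 adult means above all young means, against 5.3% of all probe sets kept. Gpx3 and Gstt1 were the only list genes that met the choice, which placed them among the 9. Aldh1a1, a retinaldehyde dehydrogenase, stood just outside it with 1610.4 units on day 23 and 2393.4 at 5 months.

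The 3 probe sets named Mup3, Mup3 and Mup5 belong to a family of nearly identical genes, and their suffix _f marks probes shared within a family. Which family member gave the signal is therefore uncertain. The first Mup3 probe set, 101910_f_at, read 32.7, 32.7 and 78.6 units on day 6 and 369.1, 408.9 and 337.9 on day 23. It then read 1653.2, 2483.8 and 1464.3 units at 9 weeks, 2539.5, 1654.8 and 2404.5 at 5 months, and 1373.4, 812.2, 404.8 and 545.1 at 1 year. All arrays of 9 weeks and 5 months lay above all 1-year arrays, and mouse 3 of 1 year was just below the highest day 23 array. The second, 101909_f_at, had means of 651.1 ± 133.5 on day 23, 2995.7 ± 2017.1 at 9 weeks, 2979.6 ± 357.7 at 5 months and 1328.9 ± 514.9 units at 1 year. Its wide 9-week spread came from mouse 2, at 5316.0 units, with the other two at 2011.8 and 1659.4. Mup5 had 654.5 ± 70.0 units on day 23 and 2668.8 ± 872.2, 3088.2 ± 374.6 and 1300.9 ± 633.0 at the adult ages.

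Liver genes that passed the filter did not follow this pattern. A list of 14 liver genes was added after the adult-high genes were known, with 12 on the array and 5 passing the filter. None of those 5 had all adult means above the young means. Alb, serum albumin, had age means of 92.8 to 205.7 units, highest on day 14. Fgb, fibrinogen beta chain, and Apoh were at the floor in 24 and 25 of the 25 arrays and say little on the pattern. The summed level of the 5 genes was 916 to 5827 units in young and 1488 to 8557 in adult arrays. Most of it at 9 weeks was Cyp2e1, a cytochrome P450 also made in fat, with a mean of 7194.2 units.

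Usp18 was at the floor in all 6 arrays of days 1 and 6. On day 23 it read 119.5, 70.4 and 77.7 units. The adult arrays read 291.6, 158.2 and 234.3 units at 9 weeks, 491.3, 259.6 and 374.7 at 5 months, and 336.8, 245.2, 104.4 and 238.1 at 1 year. Only the third 1-year mouse was inside the young range. For Ly6e the probe set 101487_f_at read 3229.8 ± 98.5 units on day 14 and 7823.8 ± 882.3 on day 23. At the adult ages it read 16745.3 ± 6559.1, 13722.7 ± 1704.7 and 14059.3 ± 2618.3, with no array overlap. It too has the suffix _f of probes shared within a family, so which Ly6 gene gave the signal is uncertain. Of 12 interferon response genes kept by the filter, 3 (against 5.3% of all probe sets kept) had all adult means above the young means, namely Usp18, Ly6e and, below the 1.5 ratio, Gbp2 (330.5 units on day 23, 336.2 at 1 year). The rest of the 12 did not, for example Isg15 and Irf7. Isg15 had 380.9 units on day 17 and 159.1 at 1 year, and Irf7 had 295.5 on day 1 and 178.2 at 1 year. At 1 year the median log2 difference of the 12 genes was -0.98 against 5 months and -0.73 against 9 weeks. Over all probe sets kept it was -0.07 and -0.02. Without Ly6e and Usp18, the summed level of the other 10 genes was 1192 to 3344 units in young and 1726 to 4813 in adult arrays, so the groups overlapped. The 2 probe sets with Ifi symbols that met the level and ratio conditions are outside this list. Of 10 class I antigen processing genes kept, 5 had all adult means above the young means, against 5.3% of all probe sets kept. Their ratios were 1.15 for Tap1, 1.24 for Tap2, 1.08 for Psmb8, 1.17 for Psmb9 and 1.17 for Psmb10, all short of 1.5.

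Casp1, the inflammasome protease that matures interleukin 1 beta, holds the only CACGTG among the promoters printed here. In GRCm38.p6 the 250 bases before its start are chr9:5298267-5298516 on the plus strand, and capitals mark CACGTG, an E-box, 137 bases before the start.
Casp1: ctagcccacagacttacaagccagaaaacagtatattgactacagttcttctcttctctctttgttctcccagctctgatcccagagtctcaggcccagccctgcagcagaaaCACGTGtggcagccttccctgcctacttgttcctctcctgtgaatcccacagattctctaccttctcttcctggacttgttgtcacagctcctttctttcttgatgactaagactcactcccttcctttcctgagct
Casp1 means were 85.6 ± 5.2, 81.5 ± 23.0, 110.0 ± 28.7, 149.8 ± 17.2 and 159.7 ± 14.8 units on the 5 young days. The adult arrays read 280.4, 215.9 and 254.6 units at 9 weeks, 387.1, 364.7 and 365.7 at 5 months, and 335.0, 298.1, 286.8 and 369.3 at 1 year. No adult array overlapped with a young one, and the 5-month mice were all above the 9-week mice. AW112010 had means of 52.9 units on day 1, 188.0 on day 23 and 516.8 ± 125.4, 396.7 ± 75.8 and 331.8 ± 94.9 at the adult ages.

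Ccl8 encodes a chemokine that attracts monocytes and other leukocytes. RefSeq gives the 250 bases before its start as chr11:82114935-82115184 of GRCm38.p6, plus strand, and capitals mark TATAAA, 32 bases before the start.
Ccl8: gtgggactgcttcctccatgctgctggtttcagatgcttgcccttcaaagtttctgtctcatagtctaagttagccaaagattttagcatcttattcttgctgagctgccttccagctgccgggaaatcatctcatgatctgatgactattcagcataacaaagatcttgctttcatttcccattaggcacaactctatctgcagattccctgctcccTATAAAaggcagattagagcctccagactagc
Ccl8 stood higher on each young day than on the one before, with means of 65.8 ± 31.0, 120.8 ± 19.1, 486.0 ± 70.7, 830.8 ± 217.6 and 1443.1 ± 395.6 units. At 9 weeks the arrays read 3631.0, 1498.9 and 1743.8 units, at 5 months 3864.5, 3821.7 and 3733.5, and at 1 year 1613.4, 3736.9, 2998.5 and 2998.2. The 5-month mice lay close together and above all 9-week mice, and 3 of the 10 adult arrays were within the young range, which ended at 1785.3. Of 13 chemokine and cytokine genes kept by the filter, Ccl8 was the one with all adult means above the young means, against 5.3% of all probe sets kept. Ccl9, another chemokine, had 1661.0 units on day 23, 4829.8 at 9 weeks and 812.2 at 1 year. The macrophage and dendritic cell list had 17 genes kept, 1 of which, Cd74, had all adult means above the young ones (5.3% of all probe sets kept). This list had a summed level of 10708 to 24754 units in young and 19385 to 50345 in adult arrays. Its part in the Ccl8 values was not tested. Rarres2 had 2178.1 ± 417.8 units on day 23 and 3537.1 ± 871.3, 3450.4 ± 301.5 and 3423.3 ± 1099.1 at the adult ages, so its adult means differed from each other by less than their spread.

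Ighm, the constant region of the immunoglobulin mu chain, was found by 2 probe sets. Probe set 93583_s_at read 159.5, 190.8 and 159.6 units on day 1 and 1073.2, 1147.2 and 890.7 on day 23. In adults it read 2760.2, 2134.0 and 1115.0 units at 9 weeks, 2417.3, 2510.6 and 1839.9 at 5 months, and 2764.9, 4385.1, 1309.6 and 2248.6 at 1 year. Mouse 3 of 9 weeks was the one adult inside the young range. Probe set 93584_at had 350.7 ± 114.9 units on day 23, 658.4 ± 235.7 at 9 weeks, 648.2 ± 105.6 at 5 months and 1526.6 ± 620.7 at 1 year. A further 14 probe sets carry the symbol Ighm, of which 2 passed the filter. Their age means reached at most 203.4 units, and none had a ratio of lowest adult to highest young mean above 1.0.

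Other B cell genes that passed the filter did not share the pattern. Of 11 B cell and plasma cell genes kept, Ighm was the one with all adult means above the young means, against 5.3% of all probe sets kept. Cd79a, a chain of the B cell receptor complex, had 318.3 units on day 17 and 90.6, 151.1 and 88.9 at the adult ages, and Ms4a1, which encodes CD20, had 640.2 on day 17 and 205.8, 188.7 and 190.6 in adults. Cd22 had age means of 32.7 to 38.2 units and was at the floor in 19 of the 25 arrays, so it says little on the pattern. Without Ighm, the summed level of the other 10 genes was 2035 to 4664 units in young and 2461 to 4504 in adult arrays. Plcg2, a phospholipase of B cell and myeloid receptor signalling, had the fewest adult arrays above the young range. It read 36.3, 51.4 and 186.4 units on day 23, and only 4 of the 10 adult arrays, which ranged from 127.0 to 237.2 units, exceeded that highest value.

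Mb encodes myoglobin, the oxygen-binding protein of muscle, and Clcn1 the chloride channel of skeletal muscle. Mb was at the floor in 2 of 3 arrays on day 1 and had means of 76.5 ± 20.7 on day 6, 229.2 ± 101.5 on day 14, 329.7 ± 32.2 on day 17 and 1121.1 ± 198.2 units on day 23. Adult arrays read 1756.9, 2801.4 and 2221.7 units at 9 weeks, 1518.8, 3642.0 and 1665.5 at 5 months, and 5027.9, 2755.6, 950.2 and 2649.2 at 1 year. The third 1-year mouse was below the highest day 23 array, at 1321.7. Clcn1 varied more between mice of these older ages than any other of the 21 probe sets, with 459.2, 510.9 and 84.2 units at 5 months and 1227.8, 545.4, 46.8 and 579.6 at 1 year. Mouse 3 of each of these ages was inside the young range.

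Other muscle genes stood higher in adults too, mostly with smaller ratios. Of 32 skeletal muscle genes kept, 19 had all adult means above the young means, against 5.3% of all probe sets kept. Mb is among these 19 by the choice. Mb was the one with a ratio of 1.5 or more. Aldoa, aldolase A, followed with 15060.1 units on day 23 and 34778.1, 20464.7 and 36442.2 at the adult ages, and Ryr1, the calcium release channel, had 2728.9 on day 23 and 3817.7, 3909.8 and 3596.5. Without Mb, the summed level of the other 31 genes was 62956 to 205851 units in young and 147994 to 523066 in adult arrays. Its part in the Mb and Clcn1 values was not tested.

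Hexa, the alpha subunit of lysosomal beta-hexosaminidase, and Sqstm1, the autophagy receptor p62, take part in lysosomal breakdown and autophagy. Hexa means were 370.9 to 635.9 units on the young days and 1378.9 ± 184.6, 1136.4 ± 241.9 and 1257.8 ± 155.7 at the adult ages. Sqstm1 means were 874.4 to 1252.4 units, highest on day 17, and 2625.5 ± 292.6, 1913.3 ± 169.2 and 2654.8 ± 658.3. Neither had an array that overlapped. A lysosomal list added later had 21 genes kept and 4 (against 5.3% of all probe sets kept) with all adult means above the young means, namely Hexa, Npc2, Man2b1 and Lamp1. Abcb4, the phosphatidylcholine transporter of bile canaliculi, had its lowest young mean on day 17 (55.2 ± 21.1 units), 230.5 ± 20 on day 23 and 441.8 ± 75.1, 354.4 ± 13.8 and 551.2 ± 225.3 in adults. Rasa4, a Ras GTPase activator, had 473.1 ± 32.9 units on day 23 and 777.1 ± 40.8, 785.4 ± 86.8 and 754.8 ± 294.2 in adults.

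Across the 21 probe sets, "high only in adult skin" held for the means by construction but less strictly for single arrays. In 7 of them, Inmt, Mup3 (101909_f_at), Hexa, Ly6e, Casp1, Abcb4 and Sqstm1, all 10 adult arrays exceeded all 15 young ones, as did 0.328% of all probe sets kept; the choice fixed that contrast and nothing is read from the count. The other 14 overlapped. The highest young mean was that of day 23 for 19 probe sets and of day 17 for Plcg2 and Sqstm1. Day 23 was the highest young day for 25% of all probe sets. Means of successive young days stood each above the one before in 5 probe sets, namely Ccl8, both of Ighm, AW112010 and Mb, and in 1.47% of all. The choice used these young means, so nothing is read from the distance of either count to its share over all. Just inside the 1.5 ratio were Sqstm1 (1.53), Abcb4 (1.54) and Gstt1 (1.57), and just outside Ptp4a3 (1.49), Aldh1a1 (1.49) and Art1 (1.47). Centring every array on its median, in place of the authors' scaling, enlarged the set from 21 to 39 with all 21 kept. Quantile normalization also gave 21 but without Gpx3, Ly6e, Rarres2 and Sqstm1. Of the 21, 17 were above the filter level of 127.8 units in at least 3 young arrays; Inmt and Clcn1 were in 2, Plcg2 in 1 and Usp18 in 0, so these 4 passed the filter through the adult arrays.

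**Figure D2:**
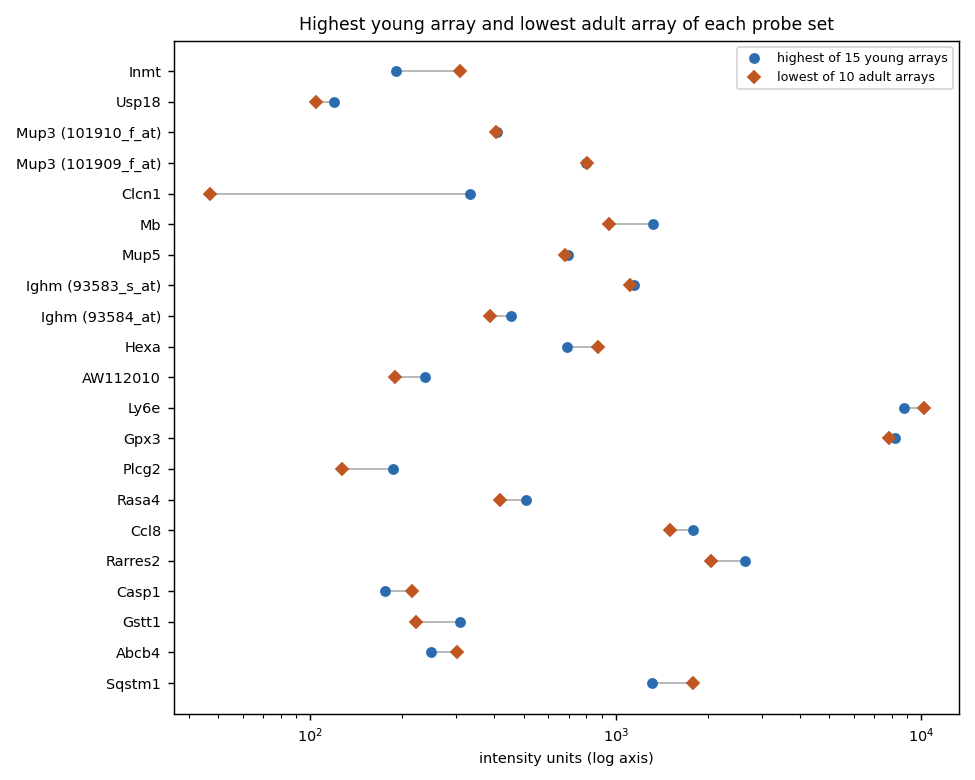
For each of the 21 probe sets, the highest of the 15 young arrays (blue circle) and the lowest of the 10 adult arrays (orange diamond), in intensity units on a log axis. The diamond lies to the right of the circle in 7 probe sets, by most for Inmt (191.4 and 307.8 units), and far to the left for Clcn1 (332.8 and 46.8 units).

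Second probe sets of Clcn1, Hexa, Ly6e and Mb did not show the pattern. Each gene has 1, none passed the filter, and their highest age means were 37.7, 45.9, 94.7 and 62.4 units. Signals so near the floor of 32.7 units carry little information on level.

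RefSeq promoters were found for 14 of the 19 genes. TATAAA on either strand lay within the 250 bases before the start in Ccl8, Clcn1 and Inmt, against 12.4% of 32851 promoters of the same length. CACGTG lay in Casp1 and Plcg2, against 6.02%. None of the 14 held the D-box TTATGTAA (0.819% of all), the STAT-type element TTCNNNGAA (7.02%), the kappa B element (0.14%) or the CRE TGACGTCA (1.55%). These are matches of letters and not measured sites.

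The choice did not compare the adult ages with each other, but it set a lower bound for the mean of each, so a gene that dropped to its young level at 1 adult age could not enter. The counts called among the adult ages are therefore not free of the choice, and nothing is read from their distance to the background. In this and the following tests limma was fitted to log2 intensities of all 8835 probe sets kept, with Benjamini-Hochberg adjustment over all of them and a call at an adjusted p below 0.05; errors are standard errors. Between 5 months and 9 weeks, 4 of 21 probe sets had an unadjusted p below 0.05, a count not made over all probe sets. After adjustment 0 of 21 were called, against 4.3% of all (2.37% higher and 1.94% lower). That background of 380 calls became 2 to 12 without any 1 of the 5-month mice and 11, 3 and 192 without mouse 1, 2 and 3 of 9 weeks. It was 169 and 84 without mouse 2 and 4 of 1 year and 665 without mouse 3. Casp1 was higher at 5 months by 0.58 ± 0.18 on the log2 scale (adjusted p = 0.0926) and Gpx3 lower, at -0.91 ± 0.28 (adjusted p = 0.0961). Without mouse 3 of 1 year, which shares the fit, Gpx3 passed at -0.91 (adjusted p = 0.0464). Ccl8 differed by 0.85 ± 0.35 (adjusted p = 0.193) and Sqstm1 by -0.45 ± 0.2 (adjusted p = 0.219). The median difference of the 21 probe sets was -0.08, against 0.03 over all 8835.

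The major urinary protein signal was lower at 1 year than at 5 months. Between 5 months and 1 year, 2 of 21 probe sets were called, both lower, against 14.5% of all called in either direction and 5.75% higher and 8.75% lower. That background of 1281 calls became 267, 820 and 541 without mouse 1, 2 and 3 of 5 months, 762 and 787 without mouse 2 and 4 of 1 year, and 200 with Xist as a covariate. Mup3 (101910_f_at) fell by 1.62 ± 0.37 on the log2 scale (limma adjusted p = 0.0195), from 2199.6 ± 476.6 to 783.9 ± 427.8 units, and Mup5 fell by 1.37 ± 0.34 (adjusted p = 0.0264), from 3088.2 ± 374.6 to 1300.9 ± 633.0. The other Mup3 probe set differed by -1.24 ± 0.4 and missed the threshold (adjusted p = 0.0633). The 3 probe sets can cross-hybridise and are not independent. Every 1-year array was lower than every 5-month array in all 3. The median difference over the 21 probe sets was -0.05, against -0.07 over all.

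Both calls rested on few mice. They were lost without mouse 1 or mouse 3 of 5 months, without mouse 4 of 1 year and, for Mup5, without mouse 2 of 5 months, with adjusted p of 0.0511 to 0.11. Every 1-year mouse carried the male marker but only mouse 2 of the 5-month group did, and with Xist as a covariate the adjusted p rose to 0.153 for Mup3 and 0.179 for Mup5. That 5-month mouse read 1654.8 units for Mup3 and 2670.1 for Mup5, and the highest 1-year values were 1373.4 and 2148.7. It is only 1 mouse, so age and the sex markers cannot be told apart in these 2 calls. Hair shaft genes were also high in 3 of 4 mice at 1 year and 1 of 3 at 5 months; with their score as a covariate the 2 calls were kept. With no filter on low signal both were lost (adjusted p = 0.0532 and 0.0681).

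In the same comparison the Ighm probe set 93584_at was higher at 1 year by 1.14 ± 0.37 (limma adjusted p = 0.0624), and Sqstm1 by 0.44 ± 0.19 (adjusted p = 0.14). The Ighm difference passed without mouse 3 of 1 year (1.44, adjusted p = 0.0167) and without mouse 3 of 9 weeks (1.14, adjusted p = 0.0438). Without mouse 3 of 1 year Sqstm1 (0.6, adjusted p = 0.0271) and Abcb4 (0.8, adjusted p = 0.0461) passed as well, and the second Mup3 probe set passed without mouse 1 of 1 year (-1.45, adjusted p = 0.0428) or mouse 2 of 9 weeks (-1.24, adjusted p = 0.0262). Usp18 (-0.77 ± 0.4, adjusted p = 0.219), Ly6e (0.02 ± 0.25, adjusted p = 0.965) and Ccl8 (-0.49 ± 0.33, adjusted p = 0.339) were not called, and the choice required their 1-year means to stay at 1.5 times the young ones or more.

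Between 9 weeks and 1 year, 7 of 21 had an unadjusted p below 0.05, a count not made over all probe sets. After adjustment 0 of 21 were called, against 0.147% of all. That background of 13 calls was 0 to 67 with 1 mouse left out, with 51 without mouse 1 of 1 year, 67 without mouse 3 of 9 weeks and 0 to 3 with the Xist covariate or without mouse 4 of 1 year, mouse 1 or 2 of 9 weeks or any 1 of the 5-month mice. The median difference was -0.13, against -0.02 over all. Inmt had the largest difference, -1.97 ± 0.51 (limma adjusted p = 0.149), with no overlap of the arrays. Gpx3 differed by -0.96 ± 0.27 (adjusted p = 0.163) and Mup3 (101910_f_at) by -1.37 ± 0.37 (adjusted p = 0.158), also without overlap. Mup3 passed at -1.69 when mouse 1 of 1 year was left out (adjusted p = 0.0472). With all 25 arrays in 1 fit, Inmt (adjusted p = 0.0213) and Gpx3 (adjusted p = 0.00976) passed.

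**Figure D3:**
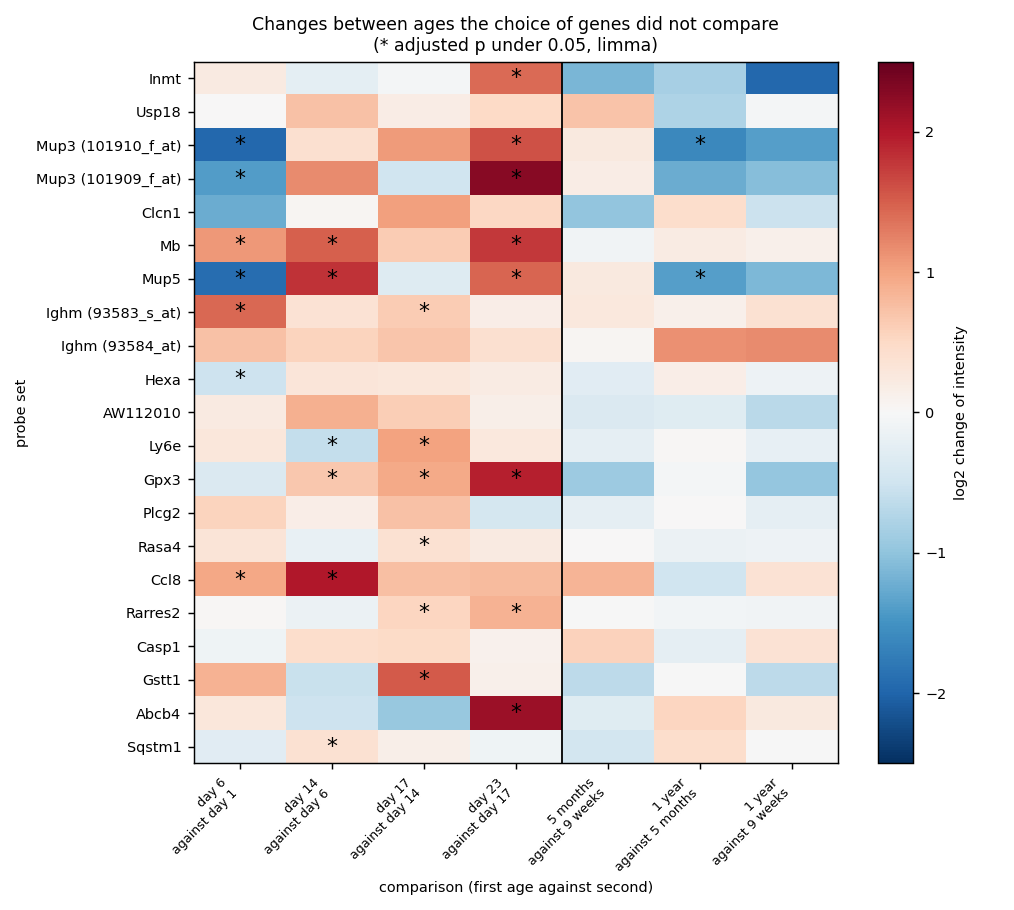
Log2 change of intensity (colour) of each probe set in 4 comparisons of successive young days and 3 comparisons of adult ages, with an asterisk where the limma adjusted p was below 0.05. Asterisks number 7, 6, 6 and 8 in the young comparisons, 0 for 5 months against 9 weeks, 2 for 1 year against 5 months and 0 for 1 year against 9 weeks.

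Levels on the young days were also compared. The choice bounded their highest mean, so the medians and the counts called in all comparisons of young days are not free of it. Nothing is read from their distance to the background. The median change of the 21 probe sets was 0.22 from day 1 to 6, 0.39 from day 6 to 14, 0.62 from day 14 to 17 and 0.49 from day 17 to 23, against -0.15, 0, 0.12 and -0.01 over all 8835. From day 1 to day 6, 7 of 21 probe sets were called, 3 higher and 4 lower, against 36.6% of all, 14.1% higher and 22.5% lower. Ighm (93583_s_at) rose by 1.43 ± 0.23 on the log2 scale (limma adjusted p = 0.000169), Mb by 1.08 ± 0.3 (adjusted p = 0.00993) and Ccl8 by 0.96 ± 0.34 (adjusted p = 0.0337). Mup3 (101910_f_at) fell by 1.97 ± 0.54 (adjusted p = 0.00898), Mup5 by 1.9 ± 0.53, Mup3 (101909_f_at) by 1.4 ± 0.51 and Hexa by 0.51 ± 0.15. Mb was at the floor in 2 of 3 arrays of day 1, Mup3 (101910_f_at) in 2 of 3 of day 6 and Mup3 (101909_f_at) in 1 of 3 of day 6, so the sizes of these changes depend on the floor. With the floor at the 40th percentile, all 5 of the Mup, Mb and Ccl8 calls were lost. Mb then differed by 0 (adjusted p = 1), Ccl8 by 0.03 (adjusted p = 0.97), Mup3 (101910_f_at) by -0.44 (adjusted p = 0.205), Mup5 by -0.85 (adjusted p = 0.0546) and Mup3 (101909_f_at) by -0.56 (adjusted p = 0.218). The Ccl8 call (adjusted p = 0.0726) and that of Mup3 (101909_f_at; adjusted p = 0.0884) were also lost with no filter. With quantile normalization or median centring the split was 5 higher and 2 lower in place of 3 and 4. Leaving out 1 array ended 5 of these calls: Mb without mouse 1 of day 6, Mup5 without mouse 1 or 2 of day 6, Mup3 (101909_f_at) without these or mouse 2 or 3 of day 1, Ccl8 without mouse 1 or 2 of day 6 or mouse 1 or 3 of day 1, and Hexa without mouse 1 or 2 of day 1 or mouse 3 of day 6 (adjusted p 0.0532 to 0.23).

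From day 6 to day 14, 6 of 21 were called, 5 higher and 1 lower, against 16.6% of all, 7.32% higher and 9.25% lower. Ccl8 rose by 2.01 ± 0.34 (limma adjusted p = 0.000601) and Mb by 1.5 ± 0.3 (adjusted p = 0.00255). Mup5 rose by 1.81 ± 0.53, Gpx3 by 0.67 ± 0.21 and Sqstm1 by 0.39 ± 0.13, and Ly6e fell by 0.59 ± 0.18. Leaving out mouse 1 or 2 of day 14 or mouse 1 of day 6 ended the calls of Mup5, Gpx3, Sqstm1 and Ly6e, and mouse 2 of day 6 those of all but Sqstm1. Mouse 3 of day 14 ended those of Ly6e and Sqstm1, and Sqstm1 was also lost without any of 9 other arrays of the fit (adjusted p 0.0525 to 0.188 in all these cases).

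From day 14 to day 17, 6 of 21 were called, all higher, against 30.2% of all in either direction and 17.8% higher. Ly6e rose by 1 ± 0.18 (limma adjusted p = 0.000686) and Gpx3 by 0.95 ± 0.21 (adjusted p = 0.00232). Gstt1 rose by 1.54 ± 0.48, Ighm (93583_s_at) by 0.64 ± 0.23, Rarres2 by 0.54 ± 0.18 and Rasa4 by 0.38 ± 0.12. Those last 4 calls each ended without 1 array or another: mouse 1 or 3 of day 17 for all 4, mouse 2 of day 17 for Ighm and Rarres2, mouse 2 of day 14 for all but Rasa4, mouse 3 of day 14 for all but Gstt1, mouse 1 of day 14 for Ighm and Rasa4, and mouse 1 of day 23 for Ighm (adjusted p 0.0509 to 0.137). Quantile normalization gave 4 higher and 1 lower, Abcb4 at -1.19 (adjusted p = 0.021), and median centring 3 higher and 1 lower.

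Between day 17 and day 23, from regression to rest, 8 of 21 were called, all higher, against 38.3% of all in either direction and 19.5% higher. Gpx3 rose by 1.95 ± 0.21 (limma adjusted p = 2.26e-06), Mb by 1.76 ± 0.3 (adjusted p = 0.000234), Abcb4 by 2.14 ± 0.37 (adjusted p = 0.000231), Rarres2 by 0.87 ± 0.18 (adjusted p = 0.001) and Mup3 (101909_f_at) by 2.28 ± 0.51 (adjusted p = 0.00217). Mup3 (101910_f_at) rose by 1.6 ± 0.54, Mup5 by 1.46 ± 0.53 and Inmt by 1.41 ± 0.48. Skeletal muscle genes were called higher in 23 of 32 cases and lower in 2, and glutathione and foreign-compound genes higher in 17 of 37 and lower in 5. Mup5 lost its call without any 1 of the 6 arrays compared, Mup3 (101910_f_at) without any but mouse 1 of day 17, and Inmt without mouse 1 or 2 of day 17 or mouse 1 or 3 of day 23 (adjusted p 0.0537 to 0.146). Inmt was above the filter level in only 2 young arrays, and its call was lost with no filter (adjusted p = 0.0618) and with the floor at the 40th percentile (0.38, adjusted p = 0.156). With no filter Mup3 (101910_f_at; adjusted p = 0.062) and Mup5 (adjusted p = 0.0899) were lost too.

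Adult mice of the same age differed in hair shaft signal. The mean log2 intensity of 19 hair shaft genes, among them Krtap6-2, was 6.58 to 7.03 in 5 adult arrays and 11.59 to 13.77 in the other 5. The high ones were mouse 3 of 9 weeks, mouse 2 of 5 months and mice 2, 3 and 4 of 1 year. The mouse with the highest score at 9 weeks was the lowest of its age for 12 of the 21 probe sets, where 36.6% of all probe sets had their lowest value. At 5 months the count was 11 (40.4% of all) and at 1 year 17 (30.5% of all). Mouse 3 of 1 year had the highest hair score, 13.77, and the lowest mean log2 intensity over the 21 probe sets, 9.33, against 10.15 to 10.55 in the other 9 adults. For the young days both scores are given as values only. The choice bounded the young means of the 21 probe sets, so nothing is read from how the scores go together. The hair score was 8.3 to 8.46 on day 1, when the 21 probe sets averaged 7.28 to 7.5, and 12.98 to 13.07 on day 17, when they averaged 8.18 to 8.29. Day 23 had scores of 6.91 to 7.19 and averages of 8.92 to 9.11.

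With the hair score added to the adult fit, the slope was negative for 19 of 21 probe sets, against 55% of all. It was called for 0 of 21, against 136 of 8835 in all. An unadjusted p below 0.05 was seen for 8 of 21, a count not made over all probe sets. Mup3 (101910_f_at) had -0.17 ± 0.04 per unit of the score (limma adjusted p = 0.0653) and Inmt -0.2 ± 0.06 (adjusted p = 0.153). Hexa (0.01 ± 0.03) and Ccl8 (0.05 ± 0.05) had the 2 slopes that were not negative. All arrays share 1 scaled mean, and the part of that scaling in these slopes was not tested. All 5 adults with high hair scores carried the male marker, and 4 of the 5 with low scores the female marker, so the hair score and the sex markers cannot be fully told apart. With the female marker in the fit instead, 0 of 21 were called (5 of 8835 in all) and 0 had an unadjusted p below 0.05, again a count of the 21 alone.

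**Figure D4:**
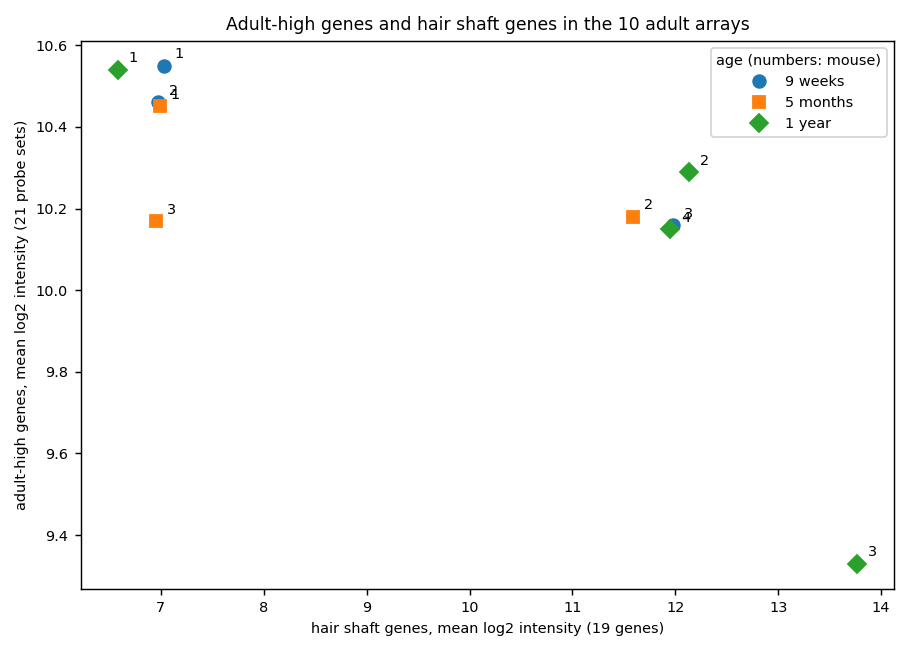
Mean log2 intensity of the 21 probe sets (vertical axis) against that of 19 hair shaft genes (horizontal axis) in the 10 adult arrays; symbols give the age and numbers the mouse. The 5 arrays with hair scores of 6.58 to 7.03 lie at 10.17 to 10.55, and mouse 3 of 1 year, with the highest hair score, lies at 9.33. The remaining arrays with high hair scores lie beside or inside the range of the low-score arrays. They are mouse 3 of 9 weeks (10.16), mouse 2 of 5 months (10.18) and mice 2 and 4 of 1 year (10.29 and 10.15).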

How the data were processed

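The intensities are linear values that the authors deposited from Affymetrix arrays, 1 per probe set. Which software made them is not given in the sources at hand; the trimmed mean of every array is 500.23 to 500.36, so arrays were scaled to a common level before deposit. Values under 32.7, the 20th percentile of the table, were set to it, and probe sets above 127.8, the 40th percentile, in at least 3 arrays were kept (8835). Probe sets were named from the platform annotation, updated through a GRCm38.p6 gene table: 10855 had 1 symbol, 396 several and 1237 none. limma 3.58.1 (R 4.3.3; lmFit, eBayes with trend) was run on log2 values, with 1 fit for the 10 adult arrays and 1 for the 18 up to 9 weeks. The tests were also run on simulated data with independent normal errors, for the first comparison of each fit only. Such data hold no pooled or outlying arrays, so nothing is read from them here. The genes, lists and tests were chosen with earlier results of these data known. Named are all 21 probe sets, those next to the ratio limit, up to 6 genes of each list by ratio, and further list genes chosen after their values were seen. Alternatives covered scaling, floor, filter, variance model, array weights, replicate block and leaving out each mouse; covariates for Xist and hair shaft genes were added after the data were seen. The number of arrays limits the precision, and mice are taken as replicates because the labels number them, although some young arrays showed both sex markers.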

Additional observations from a re-analysis of the deposited data

Results flagged for a closer look

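At 1 year, mouse 3 was far below the other 3 mice for 2 of the 21 probe sets. For AW112010 it read 189.9 units against 371.1 to 389.6, and the gap to its neighbour took up 0.932 of the range of log2 values. For Ly6e it read 10172.0 units against 14966.0 to 15858.9, a gap of 0.87 of the range. The critical value for 4 arrays is 0.829, and among the 21 groups examined chance alone flags about 1 in 20. That mouse had the highest hair shaft score of the adult arrays, 13.77. The part of hair growth in these values was not tested.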

How the results depend on the processing

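Of 29 calls, 10 were kept under every alternative: Ighm (93583_s_at) from day 1 to 6, Mb and Ccl8 from day 6 to 14, Ly6e and Gpx3 from day 14 to 17, and Mup3 (101909_f_at), Mb, Gpx3, Rarres2 and Abcb4 from day 17 to 23. No value reversed. The set held 39 probe sets with arrays centred on their medians, 6 with a ratio of 2, and 20 to 28 with 1 mouse left out. With no filter 0 probe sets were called at 1 year against 5 months, 2 from day 6 to 14, 3 from day 14 to 17 and 5 from day 17 to 23. A floor at the 40th percentile left 2 from day 1 to 6, and a fit without the intensity trend 3 from day 6 to 14. Array weights gave 3 calls at 5 months against 9 weeks, 5 at 1 year against 5 months and 2 at 1 year against 9 weeks. All 25 arrays in 1 fit gave 1, 5 and 2 in these comparisons, and 3 each from day 6 to 14 and from day 14 to 17. The Xist covariate left 0 calls at 1 year against 5 months, and the hair shaft covariate gave 1 at 5 months against 9 weeks (Gpx3, adjusted p = 0.0346). With 1 mouse left out, calls numbered 0 to 1 at 5 months against 9 weeks, 0 to 5 at 1 year against 5 months, 0 to 1 at 1 year against 9 weeks, 3 to 8 from day 1 to 6, 2 to 7 from day 6 to 14, 2 to 7 from day 14 to 17 and 5 to 9 from day 17 to 23. The causes were not tested.

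Mouse numbers do not pair the ages: correlations of same-numbered arrays ran from -0.35 to 0.39, and 3 of 9 adult arrays were closest to one of their own number. With the number as a replicate block, 1 probe set was called at 1 year against 5 months, Ighm (93584_at, 1.19, adjusted p = 0.0481), in place of the 2 Mup calls.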
